A study of Mus musculus with 21 samples.

Results

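The 10 genes described here are a part of the non-classical MHC class I genes of the mouse, each measured as a single row in these data: H2-M2, H2-M3, H2-Q4, H2-Q6, H2-Q7, H2-T22, H2-T23, H2-T24, Cd1d1 and Mr1. They were chosen by name and are 10 of the 37734 genes in the files. Other class I-like genes, H2-M5 among them, were also measured and are described last. RNAseq was run on conventional dendritic cells (cDC) sorted from C57BL/6 mice aged 6 to 8 weeks, with no genetic change or treatment in any group. There were 6 groups: for cDC1, 4 samples of immature cells from the spleen, 4 of immature cells from the thymus and 3 of mature cells from the thymus, and for cDC2, 3 samples of each of the same kinds. CD11c+ cells were enriched on magnetic beads, cDC1 were gated as CD24+ CD11b- CD11c+ and cDC2 as CD24- CD11b+ CD11c+, and the mature cells were those that were CCR7+ Esam+ while the immature cells were CCR7- Esam-. RNA came from pools of mice, and mature cells were defined by 2 surface proteins only. No mature splenic group was measured, so maturation was compared within the thymus and the tissues were compared within immature cells.

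Classical class I molecules show peptides from inside the cell to CD8+ T cells in most tissues, while the non-classical molecules have narrower ligands, fewer alleles and more restricted expression. Several of them are read by innate-like or γδ T cells or by natural killer cells rather than by conventional CD8+ T cells. Thymic dendritic cells carry self-antigens to developing thymocytes, and the mature cells among them express CCR7 together with costimulatory molecules. Most class I heavy chains pair with β2-microglobulin, and many of their genes are switched on through an upstream enhancer bound by NF-κB and IRF factors and through the transactivator NLRC5.

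Of the 10 genes, 8 lie on chromosome 17 in the H2 complex and its flank (mm10, GRCm38). Their order on the chromosome is H2-Q4 (chr17:35379617-35385290, + strand), H2-Q6 (chr17:35424850-35430055, +), H2-Q7 (chr17:35439155-35443773, +), H2-T24 (chr17:36005695-36020560, -), H2-T23 (chr17:36029773-36032855, -), H2-T22 (chr17:36037128-36042747, -), H2-M3 (chr17:37270220-37274484, +) and H2-M2 (chr17:37480851-37483552, -). Cd1d1 lies at chr3:86995834-86999441 (-) and Mr1 at chr1:155127277-155146814 (-). The 250 bases upstream of the RefSeq start of 8 members were read (GRCm38.p6). H2-T24 and Cd1d1 are named only. The windows of H2-M2, H2-Q4, H2-Q6 and H2-Q7 are printed because they match the κB pattern below, which the other members' windows did not. The Mr1 window is printed because Mr1 was the only member with no call on maturation. These windows were chosen with the changes known, and any link between the element and the rise was not tested. Each runs 5′ to 3′ in the direction of the gene and ends at the base before the start: H2-M2 at chr17:37483555-37483804 (-), H2-Q4 at chr17:35379367-35379616 (+), H2-Q6 at chr17:35424600-35424849 (+), H2-Q7 at chr17:35438905-35439154 (+) and Mr1 at chr1:155146815-155147064 (-). Capitals mark matches to a κB element (GGGNNTTCC) or an IRF element (GAAANNGAA), each searched on both strands.
H2-M2: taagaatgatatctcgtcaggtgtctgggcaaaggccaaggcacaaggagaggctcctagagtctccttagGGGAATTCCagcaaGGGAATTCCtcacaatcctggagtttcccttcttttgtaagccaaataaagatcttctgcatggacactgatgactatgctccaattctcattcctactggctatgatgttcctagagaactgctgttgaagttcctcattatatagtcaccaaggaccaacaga
H2-Q4: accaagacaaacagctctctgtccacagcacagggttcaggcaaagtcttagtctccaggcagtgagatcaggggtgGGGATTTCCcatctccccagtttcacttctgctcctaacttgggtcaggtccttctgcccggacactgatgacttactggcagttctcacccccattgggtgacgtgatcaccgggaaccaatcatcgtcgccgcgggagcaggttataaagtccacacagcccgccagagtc
H2-Q6: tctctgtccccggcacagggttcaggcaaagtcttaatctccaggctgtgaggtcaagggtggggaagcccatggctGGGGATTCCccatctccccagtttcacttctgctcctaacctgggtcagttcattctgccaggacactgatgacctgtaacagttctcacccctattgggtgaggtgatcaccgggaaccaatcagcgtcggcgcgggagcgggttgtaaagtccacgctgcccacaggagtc
H2-Q7: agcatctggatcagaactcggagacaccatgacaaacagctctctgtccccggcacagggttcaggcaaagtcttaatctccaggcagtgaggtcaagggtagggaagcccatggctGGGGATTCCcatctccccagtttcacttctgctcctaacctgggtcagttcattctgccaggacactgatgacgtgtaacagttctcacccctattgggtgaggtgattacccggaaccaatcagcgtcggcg
Mr1: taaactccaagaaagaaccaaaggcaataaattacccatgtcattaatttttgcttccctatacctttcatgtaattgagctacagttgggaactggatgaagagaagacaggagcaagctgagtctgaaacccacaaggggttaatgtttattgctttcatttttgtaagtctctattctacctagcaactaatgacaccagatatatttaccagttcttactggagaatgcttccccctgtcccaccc
The H2-M2 window held 2 copies of GGGAATTCC, 179 to 171 and 165 to 157 bases before the start. H2-Q4 held GGGATTTCC 173 to 165 bases before the start, H2-Q6 held GGGGATTCC at the same distance, and H2-Q7 held GGGGATTCC 133 to 125 bases before it. The windows of the classical genes H2-K1 and H2-D1 also held GGGGATTCC. No match to the κB pattern GGGNNTTCC was found in the windows of H2-M3, H2-T22, H2-T23 or Mr1. A match to the IRF pattern GAAANNGAA was found in those of H2-T22 (TTCACTTTC on the opposite strand, 190 to 182 bases before the start) and H2-T23 (123 to 115 bases before it). The GENCODE M21 start of H2-T23 lies at -154 relative to the RefSeq start, so this match falls within the gene as GENCODE annotates it. For H2-D1 the GENCODE start lies at -364, so its whole window falls within that gene. For the other members it lay from -14 (H2-M3) to 2 (H2-M2). No other form of κB or IRF site was searched, so a window without a match may still hold one. The letters gtttcacttct, which the IRF pattern does not match, stand in the windows of H2-Q4, H2-Q6, H2-Q7, H2-M3, H2-K1 and H2-D1. Whether they are an IRF site was not tested. The third motif searched, CCAAT, occurred in every member's window but that of Mr1. Of 32851 windows of the same length in the table, 4.98% held a κB element, 7.13% an IRF element and 33.8% a CCAAT box. The H2-Q6 and H2-Q7 windows were identical at 71.6% of 211 positions when shifted by 39 bases, and H2-Q4 and H2-Q6 at 51.2% of 250 positions. H2-M2 was identical to any other member's window at no more than 41.6% of positions. A match of letters is a description of the sequence and shows no binding.

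Values are normalized read counts, meaning reads per gene divided by the DESeq2 size factor of the library, and a log2 change is on the log2(value + 1) scale, which understates changes of low genes. Libraries held 14266867 to 40119669 reads. The libraries of replicates 4 and 5 of immature splenic cDC1 differed least of all pairs and were counted as 1 sample. A gene was called at a limma adjusted p below 0.1, and all 10 members were among the 14970 genes tested. Where nothing says that samples of a group came from separate animals or cultures, the p-values measure only the spread between these samples, which may be technical. Ccr7, the receptor used in the sort, rose by 7.29 (cDC1) and 4.88 (cDC2) on the log2 scale in mature cells. Xcr1, a cDC1 marker, was at 12566 ± 3125 in splenic and 19098 ± 2044 in thymic immature cDC1 (SD, n = 4 each) against 440.3 ± 164 in mature cDC1 and 18.9 ± 7.21 in mature cDC2 (n = 3 each). In sorted bulk samples, fewer cells with a transcript and less of it per cell cannot be told apart.

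Maturation moved nearly all of these 10 members, and mostly upwards. In thymic cDC1, 8 of the 10 members rose, 1 fell and 1 was not called, where 30.4% of all tested genes rose and 33.7% fell. In thymic cDC2 the counts were again 8, 1 and 1, where 27.7% of all genes rose and 25.5% fell. H2-T24 was the member that fell and Mr1 the member with no call in both subsets. The median log2 change of the members was 1.64 in cDC1 and 1.99 in cDC2, against -0.04 and 0.04 over all tested genes. Of the 8 that rose, 7 did so more than 2-fold in each subset, H2-M3 being the exception. Both mature groups were sequenced on lane 8 alone. Among lane 8 libraries alone, a setting chosen after seeing the data, 9 members were called in cDC1 and 8 in cDC2. The share of all genes called in that setting was not recorded.

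**Figure D1:**
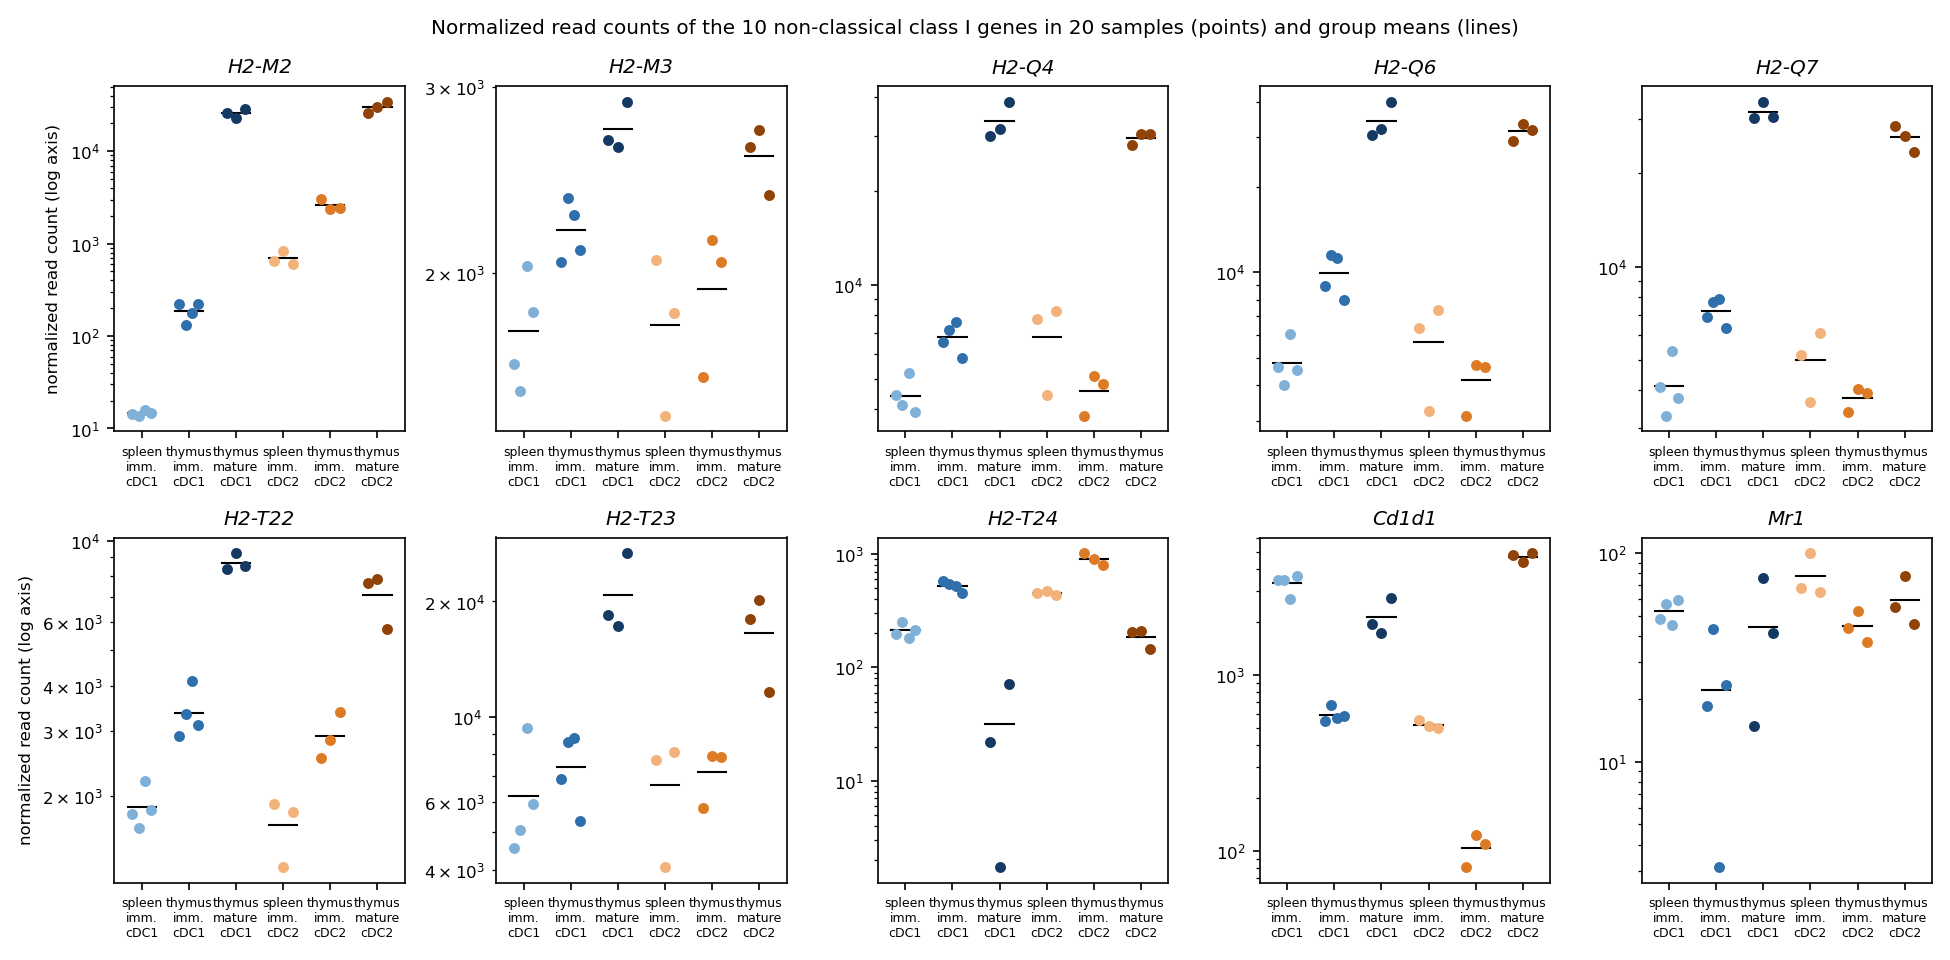
Normalized read count (log scale) of each of the 10 genes in each sample, by group. Points are samples and lines are group means. H2-M2 spans 13.8 to 34330.1, whereas H2-M3 stays between 1464 and 2904 in every sample.

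H2-M2, a divergent class I gene at the telomeric end of the complex, had the widest range of the set. Immature splenic cDC1 held normalized read counts of 14.4, 13.8, 15.7 and 14.7 (6 to 37 reads per library). The 14.7 is the mean of the 2 libraries counted as 1 sample, which held 37 and 6 reads. The closeness of these 4 values therefore understates the spread between libraries. Immature thymic cDC1 held 220.5, 132, 179 and 223. Immature splenic cDC2 held 651, 841 and 608, and immature thymic cDC2 held 3074, 2376 and 2452. Mature thymic cDC1 held 25649, 22732 and 28791, and mature thymic cDC2 held 25691, 29965 and 34330.1. No sample of an immature group overlapped another group, so that the order splenic cDC1, thymic cDC1, splenic cDC2, thymic cDC2 was kept by every sample, and only the mature groups overlapped one another. The transcript rose by 7.11 on the log2 scale in cDC1 (SE 0.18, limma adjusted p = 5.13e-17), a 138-fold change, and by 3.51 in cDC2 (SE 0.19, adjusted p = 1.40e-11), an 11.4-fold change. The gain was thus smaller in cDC2, by 3.60 on the log2 scale (difference -3.60, SE 0.26, adjusted p = 2.15e-08), from a higher starting level. In mature cells the subsets differed by only 0.22 (95% interval -0.18 to 0.62, adjusted p = 0.454). In the same 4 immature groups the Ccr7 transcript was at 434 ± 204, 714 ± 179, 3782 ± 1716 and 3419 ± 682, so that both genes were higher in cDC2, and the part of cells with Ccr7 in the H2-M2 values was not tested. Per kilobase of exon, H2-M2 stood at rank 12303 of 37607 genes in immature splenic cDC1, at rank 6549 in immature thymic cDC1 and at rank 62 in mature thymic cDC1. In cDC2 its rank went from 2512 in the spleen through 597 in the immature thymic cells to 51 in the mature ones.

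The Q-region genes rose together. H2-Q6 and H2-Q7 are among the genes that encode Qa-2, a class I molecule attached to the membrane by a lipid anchor, and H2-Q4 encodes the related Qb-1 molecule. H2-Q6 was at 8980.5, 11555, 11208 and 7971 in immature thymic cDC1 and at 30516, 31952 and 40044 in mature ones, and at 3126, 4716 and 4629 in immature thymic cDC2 against 29203, 33366 and 31924 in mature ones. All mature samples lay above all immature samples, and the mature groups overlapped. The log2 change was 1.79 in cDC1 (SE 0.23, adjusted p = 1.36e-06) and 2.94 in cDC2 (SE 0.25, adjusted p = 6.59e-09). The difference of the 2 changes, 1.15 (SE 0.34), was also called (adjusted p = 0.0296).

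H2-Q4 went from 6775 ± 786 (SD, n = 4) to 33439.9 ± 4599 (n = 3) in cDC1 and from 4565 ± 676 to 29642 ± 1303 (n = 3 each) in cDC2, log2 changes of 2.30 (adjusted p = 1.38e-09) and 2.71 (adjusted p = 8.67e-10). H2-Q7 went from 7195 ± 706 to 31599.6 ± 2193 and from 3769 ± 327 to 26177 ± 2498, log2 changes of 2.14 (adjusted p = 1.36e-09) and 2.79 (adjusted p = 2.05e-10). Both genes were therefore raised about as far as H2-Q6, to mature levels that did not differ by call between subsets. The difference of the changes between subsets was 0.66 for H2-Q7 (SE 0.25, adjusted p = 0.0945) and 0.41 for H2-Q4 (SE 0.27, adjusted p = 0.361, not called). These genes are near copies. Of the 150-base windows of their exons, 5.99% in H2-Q6 and 6.87% in H2-Q7 occur in another gene, and of the 50-base windows 22% in H2-Q4, 32.0% in H2-Q6 and 27.1% in H2-Q7, so reads of the 3 genes and of H2-Q5 and H2-Q10 may be split between them and single-gene values are uncertain. H2-Q5 itself, annotated as a polymorphic pseudogene, rose by 2.15 and 2.95 on the log2 scale. Exons of H2-Q4 also overlap Gm11131 on the other strand, and the strand setting of the counting is not given in the sources used here.

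H2-T23 encodes Qa-1, which shows leader peptides of classical class I molecules to the CD94/NKG2 receptors of natural killer and T cells, and H2-T22 is a ligand of a set of γδ T cells. H2-T23 was at 6887, 8579, 8804 and 5356 in immature and 18438, 17306 and 26723 in mature thymic cDC1, and at 5784, 7917 and 7858 in immature and 17958, 20186 and 11582 in mature thymic cDC2. The groups did not overlap, although the lowest mature cDC2 sample lay well under the other two. It rose by 1.49 (SE 0.28, adjusted p = 1.07e-04) and 1.18 (SE 0.30, adjusted p = 0.00259) on the log2 scale. H2-T22 rose from 3369 ± 526 to 8705 ± 471 in cDC1 and from 2916 ± 436 to 7084 ± 1177 in cDC2, log2 changes of 1.38 (adjusted p = 4.61e-07) and 1.28 (adjusted p = 5.58e-06). For both genes the changes in the subsets were not called different, with intervals of the difference of -1.16 to 0.54 for H2-T23 and -0.61 to 0.40 for H2-T22. H2-T22 shares 35.8% of its 50-base exon windows with other genes, 32.0% with H2-T10 alone, and none of its 150-base windows. H2-T10, a near copy annotated as a polymorphic pseudogene in GENCODE M21, rose by 1.00 and 0.62. The exons of H2-T22 overlap A930015D03Rik on the other strand.

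H2-M3, which binds peptides with a formylated first residue such as those of bacteria and mitochondria, varied least. Its values were 2046, 2353, 2269 and 2103 in immature and 2669, 2629 and 2904 in mature thymic cDC1, and 1593, 2146 and 2045 in immature and 2632, 2732 and 2370.3 in mature thymic cDC2. The mature samples were above the immature ones in both subsets by a small step, of 0.32 (SE 0.14, adjusted p = 0.0559) and 0.43 (SE 0.15, adjusted p = 0.0228) on the log2 scale. The call in cDC1 was lost without immature thymic cDC1 replicate 1 or 4 or without mature thymic cDC1 replicate 3, and that in cDC2 without immature thymic cDC2 replicate 1 or among lane 8 libraries alone (log2 change 0.30, adjusted p = 0.123).

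H2-T24, a T-region gene beside H2-T23, moved against the rest. It was at 574, 541, 519.6 and 457 in immature and at 22.1, 1.73 and 71.2 in mature thymic cDC1. In cDC2 it was at 1017, 903 and 804 in immature and at 203, 211 and 147 in mature cells. All mature samples lay under all immature samples, and the 3 mature cDC1 samples rested on 1 to 89 reads. The fall was of -4.98 on the log2 scale in cDC1 (SE 0.61, adjusted p = 6.50e-07) and of -2.29 in cDC2 (SE 0.66, adjusted p = 0.00696). The difference of the changes was 2.69 (SE 0.90, adjusted p = 0.0543), and mature cDC2 held more than mature cDC1, by 3.49 (SE 0.66, adjusted p = 5.89e-04). Mature cDC1 replicates 2 and 3 decided much of these sizes: the fall in cDC1 was of -3.68 without replicate 2 and of -6.04 without replicate 3, and the difference between the mature subsets 2.18 and 4.55, called in each case.

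Cd1d1 encodes CD1d, which shows lipids to natural killer T cells, and its maturation effect differed between the subsets about as much as that of H2-M2, in the other direction. Immature thymic cDC1 held 545, 677, 573 and 582 and mature ones 1961, 1733 and 2747. Immature thymic cDC2 held 81.1, 123 and 109 and mature ones 4796, 4400.2 and 4923. The subsets therefore changed places, cDC1 being higher in every immature sample and cDC2 in every mature sample. Cd1d1 rose by 1.83 in cDC1 (SE 0.17, adjusted p = 8.88e-09), 3.55-fold, and by 5.50 in cDC2 (SE 0.18, adjusted p = 1.03e-14), 45.2-fold, and the difference of 3.67 was called (SE 0.24, adjusted p = 1.16e-08). Cd1d2, a near copy annotated as a polymorphic pseudogene, rose by 3.30 and 5.44 from low levels (11.3 ± 9.17, n = 4, and 5.64 ± 0.510, n = 3). It shares 6.62% of the 150-base and 25.8% of the 50-base windows of Cd1d1. The splenic cDC1 value of Cd1d1, 3328 ± 417 (SD, n = 4), lay above that of mature thymic cDC1, 2147 ± 532 (n = 3) although the highest mature sample (2747) passed the lowest splenic one (2721).

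Mr1 encodes MR1, which shows vitamin B metabolites to MAIT cells. By group mean per kilobase it was the lowest member in every group, at ranks 11986 to 13714 of 37607 genes. In 2 groups the next member lay within the larger SD. These were H2-M2 in immature splenic cDC1 (9.45 ± 0.509 against 8.80 ± 1.15 for Mr1) and H2-T24 in mature thymic cDC1 (14.5 ± 16.4 against 7.39 ± 5.16). The values of Mr1 per gene follow. They were 18.6, 43.3, 3.12 and 23.2 in immature and 14.7, 76.3 and 41.6 in mature thymic cDC1, and 43.8, 52.9 and 37.4 in immature and 55.3, 78.0 and 45.5 in mature thymic cDC2, so the groups overlapped. The log2 change was 1.12 in cDC1 (95% interval -0.15 to 2.39, adjusted p = 0.122) and 0.39 in cDC2 (-0.97 to 1.74, adjusted p = 0.665). The thymic libraries held 2 to 112 reads of it. In cDC1 the change was called by DESeq2 (0.99, adjusted p = 0.0921), without immature thymic cDC1 replicate 2 (1.58, adjusted p = 0.0314) and without mature thymic cDC1 replicate 1 (1.74, adjusted p = 0.0239), and it was 0.59 without mature thymic cDC1 replicate 2 (adjusted p = 0.460).

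**Figure D2:**
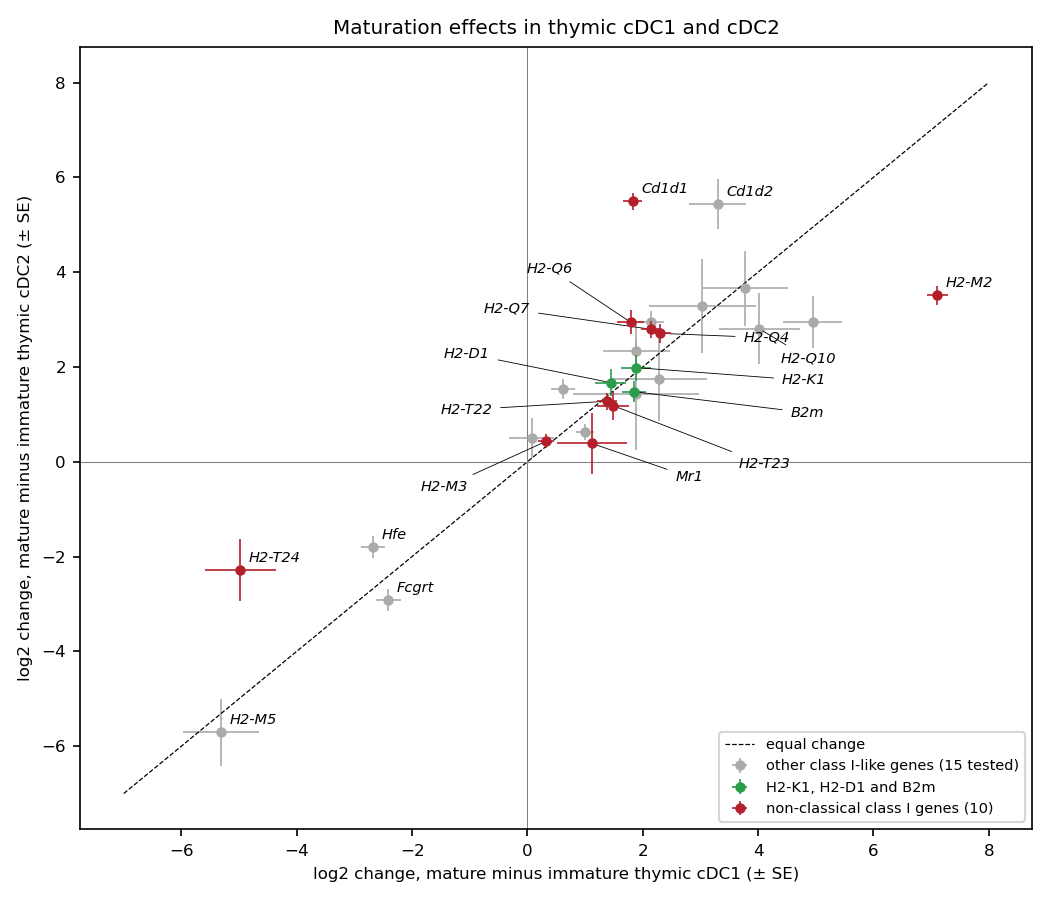
Log2 change on maturation in thymic cDC1 (x axis) and thymic cDC2 (y axis) with SE bars, for the 10 members (red), the classical genes with B2m (green) and 15 other class I-like genes (grey). H2-M2 lies far to the right of the line of equal change (7.11 against 3.51) and Cd1d1 far above it (1.83 against 5.50).

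Whether maturation acts alike in the subsets was asked by the difference of the 2 effects. It was above 0 (a more positive change in cDC2) for 4 members, where 11.2% of all tested genes were called above 0, and below 0 for 1 member, where 7.30% were called below 0. Those above 0 were H2-Q6, H2-Q7, H2-T24 and Cd1d1, and the one below was H2-M2. The calls of H2-Q7 and H2-T24 were near the threshold and were lost under several alternatives.

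Members were called different between the mature subsets about as often as all tested genes. Between mature thymic cDC2 and cDC1, 2 members were higher in cDC2, H2-T24 and Cd1d1 (1.16, SE 0.18, adjusted p = 7.73e-05), where 21% of all genes were higher. By limma 0 members were called lower, also at an unadjusted p below 0.05 and also by edgeR and DESeq2, where 9.27% of all genes were lower. The 8 members without a call had log2 differences from -0.34 (H2-T23, 95% interval -0.96 to 0.28) to 0.67 (Mr1, -0.69 to 2.02). Among these 8, the samples of H2-Q7 (-0.27, -0.66 to 0.11) and H2-T22 (-0.31, -0.68 to 0.06) did not overlap between the mature groups, cDC1 being higher. The mature cDC2 library of replicate 3 was the lowest of its group for 6 members.

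The classical genes gave the scale for the rise. H2-K1 rose by 1.88 in cDC1 and 1.99 in cDC2, H2-D1 by 1.44 and 1.67, and B2m, the shared light chain, by 1.85 and 1.48 (limma, 3 of 3 called in both subsets). Set against H2-K1 in the same sample, the normalized count of H2-Q4 went from 16.5% ± 1.02 (SD, n = 4) to 22.1% ± 1.94 (n = 3) in cDC1 and from 14.0% ± 0.929 to 23.2% ± 3.26 (n = 3 each) in cDC2. H2-M2 went from 0.475% to 17.1% and from 8.22% to 23.6%. H2-T23 went the other way, from 17.8% ± 1.88 to 13.6% ± 1.20 and from 21.9% ± 1.66 to 12.7% ± 2.30, and H2-M3 from 5.39% to 1.83% and from 5.89% to 2.00%. H2-T22 went from 8.19% to 5.86% and from 8.93% to 5.46%. In cDC1 the percents of H2-Q6 (24.1% to 22.5%), H2-Q7 (17.6% to 21.3%) and Cd1d1 (1.46% to 1.40%) overlapped between immature and mature cells, while in cDC2 they went from 12.6% to 24.6%, from 11.6% to 20.3% and from 0.318% to 3.68%. The percents of H2-Q4, H2-T23, H2-T22, H2-M3 and H2-M2 did not overlap between immature and mature cells of either subset; they are counts of unequal transcripts, carry no test, and show unequal change only.

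**Figure D3:**
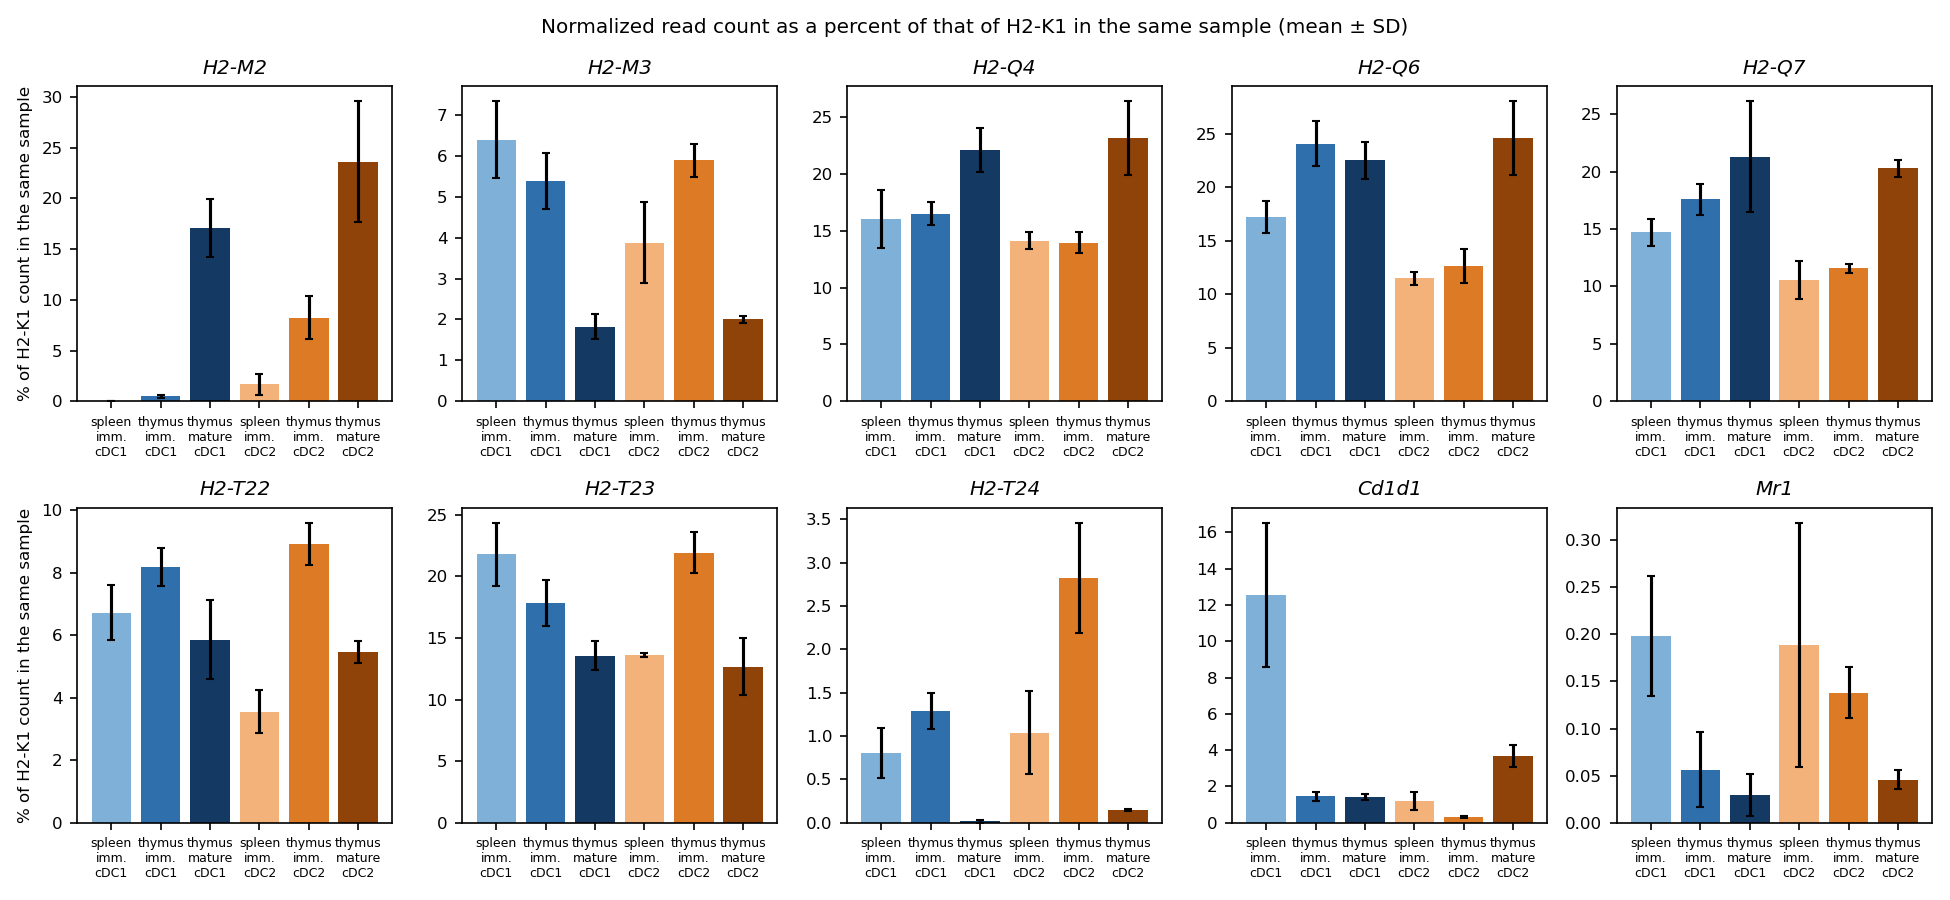
Normalized read count of each member as a percent of that of H2-K1 in the same sample (y axis from 0, a scale for each gene), by group; bars are means and lines are SD over 3 or 4 samples. H2-M2 reaches 17.1% and 23.6% in the mature groups, while H2-M3 drops to 1.83% and 2.00%.

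Genes that control class I transcription moved in the same comparisons. Of 13 such genes, all tested, 8 rose and 1 fell in cDC1, where 30.4% of all tested genes rose and 33.7% fell, and 8 rose and 2 fell in cDC2, where 27.7% rose and 25.5% fell. Nlrc5, the class I transactivator, rose by 2.50 and 2.45, from 9348 ± 1205 (SD, n = 4) to 53101 ± 8346 (n = 3) in cDC1. Irf1, an interferon response factor, rose by 5.04 and 3.00, a difference of -2.05 between subsets (adjusted p = 1.11e-05). Relb, an NF-κB subunit, rose by 4.28 and 3.53. Nfkb1, the precursor of another, was not called in cDC1 (0.07, adjusted p = 0.644) and fell in cDC2 (-0.59, adjusted p = 0.00102), from 11791 ± 745 to 7821 ± 264 (n = 3 each). Of 8 peptide-loading genes, 5 rose and 3 fell in cDC1, and 4 rose and 3 fell in cDC2, against the same shares of all genes. Tapbpl, a peptide editor, rose most (2.50 and 3.01), Tap1 (0.76 and 1.08) and Tap2 (0.73 and 1.36), the peptide transporter, rose less, and Tapbp, which tethers class I to the transporter, rose by 1.86 and 1.48. The chaperone Calr fell (-1.19 and -0.98), and so did Pdia3, a disulfide isomerase of the loading complex (-1.27 and -1.71).

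Genes of lipid loading moved both ways. Of 10 genes tested, 3 rose and 5 fell in each subset, against 30.4% and 33.7% of all genes in cDC1 and 27.7% and 25.5% in cDC2. Gm2a, a lipid transfer protein, fell by -4.24 and -3.43, and Psap, the precursor of the saposins that load CD1d, fell by -2.07 and -0.88. Npc2, a lysosomal cholesterol carrier, rose by 1.70 and 1.93. Mttp, which helps to lipidate CD1d, was low (14.7 to 45.3 in all samples) and was not called (-0.07 and 0.05).

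Markers of other cells moved with maturation. The summed level of 12 thymocyte and T cell genes was 318 to 373 in immature and 1497 to 2765 in mature thymic cDC1, and 335 to 481 in immature and 1001 to 1734 in mature thymic cDC2, and 9 of 10 tested rose in each subset. Beside this and the counts of the lists below, 30.4% of all tested genes rose and 33.7% fell in cDC1. In cDC2 27.7% rose and 25.5% fell. Each of the 12 thymocyte and T cell genes had reads in at least 1 library of both mature groups, although Ptcra was at 0 in at least 1 library of each and Rag2 in at least 1 of mature cDC1. For 6 thymic epithelial genes the sums were 597 to 711, 1805 to 2579, 3507 to 3877 and 3817 to 4878 in the same order. Of these 6, 2 rose and 1 fell in cDC1 (median log2 change 1.31) and 4 rose and 1 fell in cDC2 (median 2.21). Epcam, an adhesion molecule, fell from 3516 to 385 in cDC2 while Aire, a regulator of self-antigen expression, rose from 43.4 to 3408, so the cDC2 sums join opposite changes. For 9 macrophage and monocyte genes the sums were 2056 to 2763, 6019 to 8713, 17486 to 23803 and 5861 to 22034. Of these 9, 2 rose and 5 fell in cDC1 (median -1.35) and 1 rose and 2 fell in cDC2 (median -0.14). The higher sum in mature cDC1 was mostly Vcam1, an adhesion molecule, which went from 695 to 6740, whereas Csf1r, the receptor of the macrophage growth factor, went from 991 to 40.1. For 6 plasmacytoid cell genes the sums were 3914 to 5088, 4094 to 7114, 4761 to 6023 and 3486 to 6339, most of them Bst2, which went from 3019 to 4927 in cDC1 and from 3834 to 4537 (not called) in cDC2. Of the 5 tested, 1 rose and 3 fell in each subset (medians -2.10 and -1.26), and Siglech, a defining marker, fell from 414 to 8.00 in cDC1 and from 888.5 to 38.2 in cDC2. The part of other cells in the results was not tested.

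The tissue comparison asks how the same immature cells differ between thymus and spleen, and its answer depended on the subset. In cDC1, 5 members were higher in the thymus, where 7.72% of all genes were higher, and 2 were lower, where 7.70% were lower. In cDC2, 2 were higher against 14.9% of all genes, and 2 were lower against 11.6%. The members' median log2 difference was 0.72 in cDC1 and -0.13 in cDC2, against 0.00434 and 0.02 over all genes. The immature thymic samples enter both the maturation and the tissue comparisons with opposite signs, so the 2 are not independent.

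**Figure D4:**
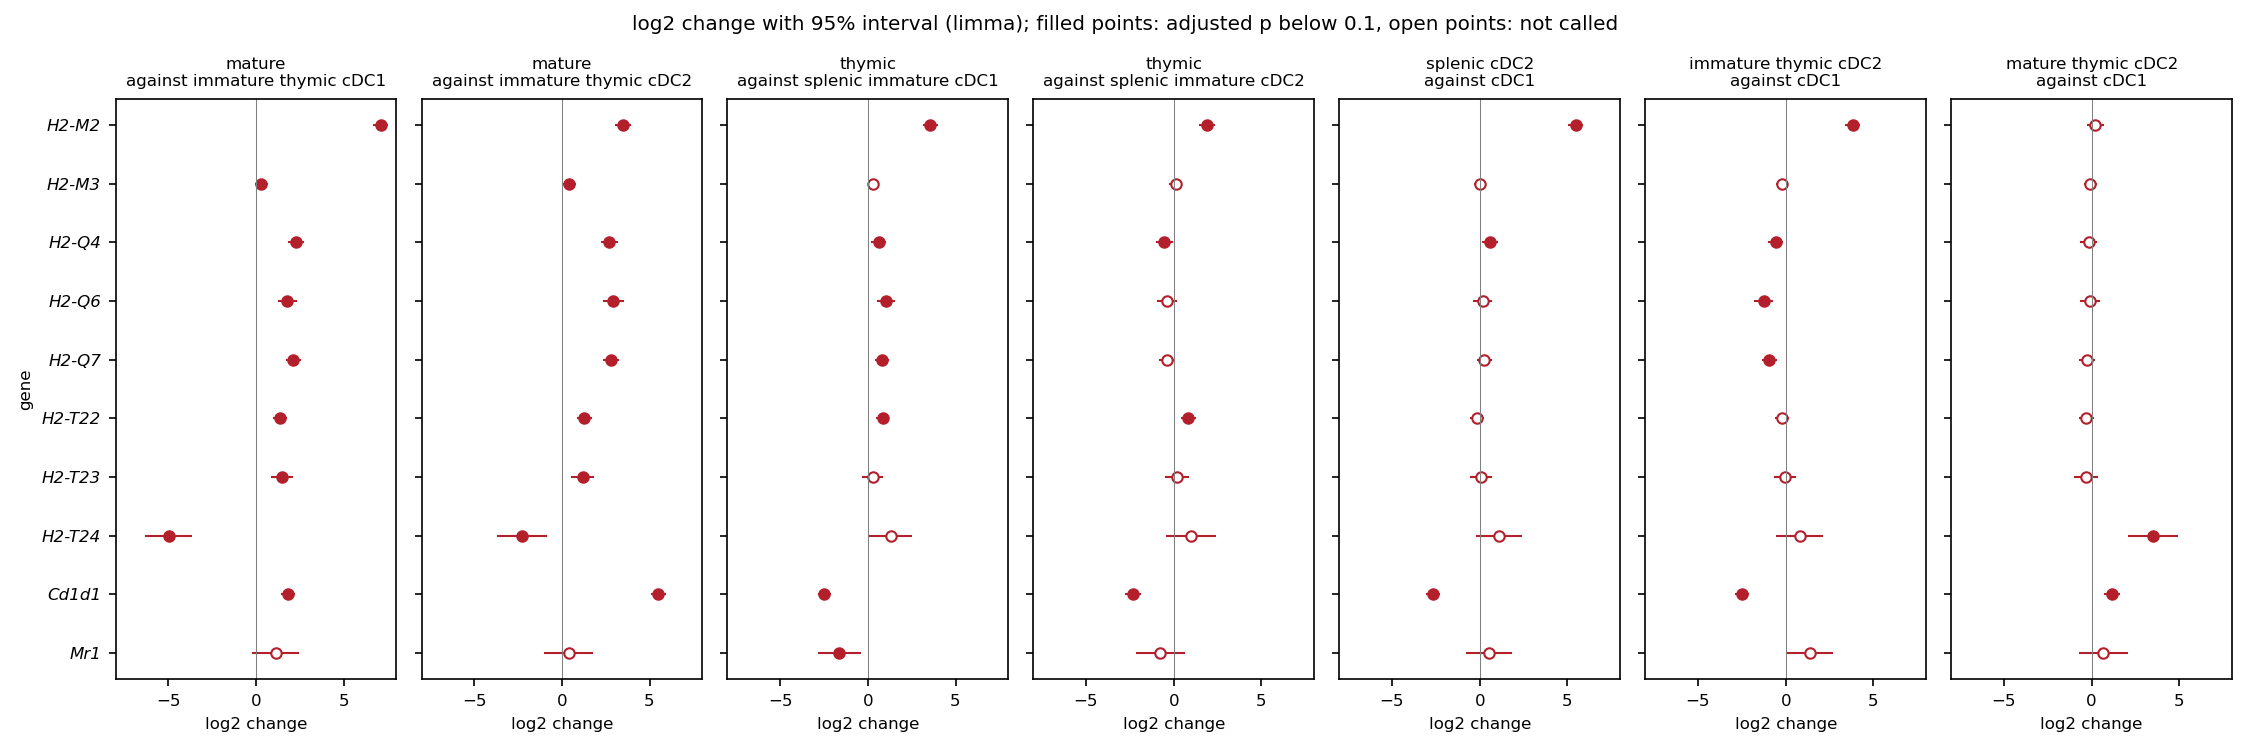
Log2 change of each member with its 95% interval in the 7 comparisons between groups; filled points are called at a limma adjusted p below 0.1. Cd1d1 is below 0 in both tissue comparisons (-2.48 and -2.33) and above 0 in both maturation comparisons (1.83 and 5.50).

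Thymic cells held more H2-M2 and H2-T22 than splenic cells in both subsets. H2-M2 differed by 3.57 in cDC1 (SE 0.17, adjusted p = 8.35e-12) and by 1.92 in cDC2 (SE 0.19, adjusted p = 3.89e-07), and the difference of -1.65 was called (SE 0.25, adjusted p = 3.38e-04). Across the 19 alternatives the H2-M2 difference in cDC1 ran from 3.09 to 3.73 and stayed called. H2-T22 was at 1778, 1629, 2193 and 1822 in splenic cDC1, all under the 2905 of the lowest thymic cDC1 sample, and at 1899.8, 1273 and 1807 in splenic cDC2, all under the 2528 of the lowest thymic cDC2 sample. Its differences were 0.86 (adjusted p = 5.00e-04) and 0.82 (adjusted p = 0.00206), nearly equal in the subsets (interval of the difference -0.52 to 0.46).

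Cd1d1 was lower in the thymus in both subsets. Splenic cDC1 held 3459.9, 3458, 2721 and 3674 and thymic cDC1 at most 677, and splenic cDC2 held 552, 512 and 497 and thymic cDC2 at most 123. The log2 differences were -2.48 (SE 0.15, adjusted p = 6.37e-10) and -2.33 (SE 0.18, adjusted p = 1.12e-08), 5.58-fold and 5.01-fold lower, and they differed by 0.15 (95% interval -0.34 to 0.65). Maturation and tissue thus bore on Cd1d1 with opposite signs, and mature thymic cDC2, at 4706 ± 273 (SD, n = 3), held the highest level of the 6 groups.

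The Q genes were higher in the thymus in cDC1, and in cDC2 their differences lay below 0. H2-Q4, H2-Q6 and H2-Q7 were higher in thymic cDC1 by 0.62 (adjusted p = 0.0184), 1.05 (adjusted p = 0.00186) and 0.82 (adjusted p = 0.00105), with no overlap between the samples. In cDC2 the differences were -0.54 for H2-Q4 (adjusted p = 0.0626, called), -0.39 for H2-Q6 (-0.91 to 0.14, adjusted p = 0.313) and -0.37 for H2-Q7 (-0.76 to 0.01, adjusted p = 0.172). The tissue effects differed between subsets by -1.16 (H2-Q4, adjusted p = 0.0107), -1.43 (H2-Q6, adjusted p = 0.0118) and -1.20 (H2-Q7, adjusted p = 0.00444). With H2-M2 these made 4 members below 0, where 2.29% of all genes were, and 0 above 0 by limma, edgeR or DESeq2, also at an unadjusted p below 0.05 by limma, where 3.96% were. H2-K1 had a difference of -1.08 in the same direction that was not called (adjusted p = 0.110). The splenic cDC2 samples spread widely, H2-Q6 being at 6368, 3243 and 7370.2, and replicate 2 was the lowest of the group for 6 members. Without replicate 2, H2-Q6 (-0.75, adjusted p = 0.0188) and H2-Q7 (-0.58, adjusted p = 0.0276) were called lower in thymic cDC2, and H2-Q7 was also called by DESeq2 (adjusted p = 0.0918) and with the sequencing lane as a covariate (adjusted p = 0.0634). The H2-Q4 call in cDC2 was lost under 5 of 17 alternatives, one being the fit of only the compared groups (adjusted p = 0.214).

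H2-T24 was at 198, 253, 183 and 215 in splenic and 457 to 574 in thymic cDC1, and at 449, 469 and 438 in splenic and 804 to 1017 in thymic cDC2. The samples did not overlap, yet the differences of 1.304 (SE 0.57, adjusted p = 0.170) and 1.00 (SE 0.66, adjusted p = 0.323) were not called. The SE is shared by all groups, including mature cDC1, where the spread of this gene was widest. With only the compared groups fitted, both were called (adjusted p = 6.35e-04 and 0.00445), as they were by DESeq2 (adjusted p = 9.39e-04 and 0.0353). Mr1 was lower in thymic cDC1 by -1.63 (SE 0.56, adjusted p = 0.0647). This call was lost under 9 of 19 alternatives, among them edgeR (adjusted p = 0.151) and a fit of only the compared groups (adjusted p = 0.171). Without immature thymic cDC1 replicate 3, at 2 reads, the difference was -0.95 (adjusted p = 0.254). H2-M3 differed by 0.32 in cDC1 (adjusted p = 0.127) and 0.11 in cDC2 (adjusted p = 0.656), and H2-T23 by 0.28 (-0.26 to 0.82) and 0.17 (-0.46 to 0.79). B cell genes (8 in the list) summed to 601 to 1017 in splenic and 106 to 140 in thymic cDC1, and to 755 to 827 and 195 to 262 in cDC2, and their part in these differences was not tested.

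Between the immature subsets, H2-M2 and Cd1d1 were the members that differed most, in opposite directions. In the spleen 2 members were higher in cDC2, where 16.0% of all genes were, and 1 was lower, where 13.4% were. H2-M2 was higher by 5.47 (SE 0.18, adjusted p = 1.52e-14), a 44.4-fold difference, H2-Q4 was higher by 0.58 (adjusted p = 0.0249), and Cd1d1 was lower by -2.67 (adjusted p = 1.50e-10). Across the 19 alternatives this H2-M2 difference ran from 4.95 to 5.58 on the log2 scale and stayed called. In the thymus 1 member was higher in immature cDC2, where 15.5% of genes were, and 4 were lower, where 10.5% were. H2-M2 was the higher one (3.82, adjusted p = 4.16e-12), and H2-Q4 (-0.57, adjusted p = 0.0301), H2-Q6 (-1.26, adjusted p = 3.33e-04), H2-Q7 (-0.93, adjusted p = 3.40e-04) and Cd1d1 (-2.51, adjusted p = 5.73e-10) were the lower ones. By these calls H2-Q4 stood on opposite sides in the 2 tissues, but neither call held under every alternative. The splenic samples of H2-Q4 overlapped. Its splenic call was lost without splenic cDC2 replicate 1 (limma adjusted p = 0.142) or 3 (0.165), and with only the compared groups fitted (0.133). Its thymic call was lost without immature thymic cDC2 replicate 1 (0.173) and among lane 8 libraries alone (0.141). The samples of H2-T24 did not overlap, cDC2 being higher at 452 against 212 in the spleen and 908 against 523 in the thymus, but the differences of 1.10 (adjusted p = 0.231) and 0.79 (adjusted p = 0.452) were not called. In the spleen edgeR (adjusted p = 0.0448), DESeq2 (adjusted p = 0.00898) and a fit of only the compared groups (adjusted p = 0.00250) called it, and in the thymus DESeq2 (adjusted p = 0.0828) and the fit of only the compared groups (adjusted p = 0.00263) did. Without splenic cDC2 replicate 2, the spleen count went from 3 to 5 members. The macrophage and monocyte genes summed to 2401 to 3561 in splenic cDC1 and 12744 to 21632 in splenic cDC2, and their part was not tested.

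Per kilobase of exon, the order of the members differed between groups. In immature splenic cDC1 it ran H2-Q6 (2303 normalized reads per kilobase), H2-T23 (2157), H2-Q4 (1698), Cd1d1 (1295), H2-M3 (1225), H2-Q7 (966), H2-T22 (544), H2-T24 (97.2), H2-M2 (9.45) and Mr1 (8.80). In immature thymic cDC1 it ran H2-Q6 (4762), H2-Q4 (2610), H2-T23 (2564), H2-Q7 (1687), H2-M3 (1525), H2-T22 (987), H2-T24 (239.7), Cd1d1 (231), H2-M2 (122) and Mr1 (3.69), so that Cd1d1 already stood low in the thymus before maturation. Of the neighbours there, H2-Q4 and H2-T23 and likewise H2-T24 and Cd1d1 differed by less than their SD. In mature thymic cDC1 it ran H2-M2 (16585), H2-Q6 (16389), H2-Q4 (12881), H2-Q7 (7409), H2-T23 (7207), H2-T22 (2550), H2-M3 (1901), Cd1d1 (835), H2-T24 (14.5) and Mr1 (7.39). Of the neighbours at the top of the mature order, H2-M2 and H2-Q6 differed by less than their SD of 1954 and 2464 (n = 3 each). Further down, H2-Q7 and H2-T23 differed by less than their SD, and H2-T24 and Mr1 by less than the SD of H2-T24 (16.4). In immature splenic cDC1, H2-Q6 and H2-T23 and likewise Cd1d1 and H2-M3 differed by less than their SD. There H2-T23 and H2-Q4 differed by less than the SD of H2-T23 (751), and H2-M2 and Mr1 by less than that of Mr1 (1.15). Exon lengths are those of the GENCODE M21 annotation.

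The genes whose pattern over the 20 samples was most like that of a member were found among 10215 other genes by Pearson's r on the log2 scale, given as a description. The points share 6 group means, so r mainly follows the groups. They were Atp2b4 (r = 0.985), Cd63 (0.981) and Cyfip1 (0.974) for H2-M2, and H2-Q5 (0.987), H2-K1 (0.983) and Icam1 (0.982) for H2-Q4. Fam89a came first for H2-Q6 (0.982) and H2-Q7 (0.987), H2-D1 for H2-T23 (0.975), Bcl2l1 for H2-T22 (0.978), Chchd2 for H2-M3 (0.947), Fcgr2b for H2-T24 (0.963) and Chst11 for Cd1d1 (0.932). For Mr1 the highest r was 0.795, with Sesn1.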

How the data were processed

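RNA of FACS-sorted cDC was made into TruSeq Stranded mRNA libraries and sequenced as paired reads of 150 bases. Per the study's methods and the submitters' processing notes, the authors used Cutadapt for trimming, STAR 2.6 for alignment (build mm10), HTSeq-count for the reads of each gene and DESeq2 1.24.0 for normalization. The Ensembl release and the strand setting are not given in the sources used here. The deposited unit is a signal, the count divided by the library's size factor; 100% of values were whole multiples of 1 read (tolerance 0.05 reads), which gave the depths (14266867 to 40119669 reads per library).

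The 10 members and all gene lists were chosen with earlier results of these data known. Of 21 libraries, replicates 4 and 5 of immature splenic cDC1 had the same label number, index and lane. Their chi-square over genes, divided by its degrees of freedom, was 2.44 (other pairs of the group 25.0 to 176), and their values were averaged as 1 of 20 samples. Replicates 3 and 4 of immature thymic cDC1 also shared these labels but differed by 92.8 and were kept apart. The number that opens a library's label has no stated meaning and was not used to pair the samples in the main test.

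The main test was limma 3.58.1 (lmFit, eBayes with trend) in R 4.3.3 on log2(value + 1), with 1 mean per group over all 6 groups, for genes at 10 or more in at least 3 samples (14970 of 37734). Benjamini-Hochberg adjustment ran over all tested genes, and adjusted p below 0.1, the cutoff of the study's methods, made a call. Tests were tried on simulated data. Alternatives were edgeR 4.0.16 and DESeq2 1.42.0 on the recovered reads, other scalings, pseudocounts (0.1 and 8) and filters, a log2 change above 1 as well, all libraries apart, only the compared groups fitted, label number or lane in the fit, each replicate left out, and lane 8 libraries alone (chosen after seeing the data). Named genes were the 10 members, fixed pathway genes, for each list and comparison the gene called with the largest change and a mean of at least 100, near copies of members, sort markers, and the 3 genes most like each member by Pearson's r; only those that bear on the members are given. Lists with no result above were natural killer cell, neutrophil and red cell genes, whose summed levels were at most 187, 24.3 and 96.1 in any sample. Exon lengths and windows came from GENCODE M21 (37607 of 37734 IDs matched), and windows before the start from RefSeq (8 of 10 members matched).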

Additional observations from a re-analysis of the deposited data

Results flagged for a closer look

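These results are given because the same contrast had a different effect in cDC1 and cDC2, by limma's test of the difference itself. For maturation, the effect in thymic cDC2 minus that in thymic cDC1 was -3.60 for H2-M2 (adjusted p = 2.15e-08), 3.67 for Cd1d1 (adjusted p = 1.16e-08), 1.15 for H2-Q6 (adjusted p = 0.0296), 0.66 for H2-Q7 (adjusted p = 0.0945) and 2.69 for H2-T24 (adjusted p = 0.0543) on the log2 scale. For tissue, the thymic minus splenic difference in cDC2 minus that in cDC1 was -1.65 for H2-M2 (adjusted p = 3.38e-04), -1.16 for H2-Q4 (adjusted p = 0.0107), -1.43 for H2-Q6 (adjusted p = 0.0118) and -1.20 for H2-Q7 (adjusted p = 0.00444). The immature thymic samples enter both. Of 20 sets of 4 samples, the members in the immature cDC1 groups, 0 had a sample far from the others by Dixon's criterion.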

How the results depend on the processing

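Of 48 called results on single members, 40 kept their direction and their call under every alternative, 8 lost the call under at least 1 and 0 reversed. Of 42 results without a call, 11 gained one under some alternative and 13 changed sign under some. Asking for a log2 change above 1 as well left 4 of 7 calls between the tissues in cDC1, 2 of 4 in cDC2 and 3 of 5 between the immature thymic subsets, by construction. The leading label number was also tried as a replicate block. Immature cDC1 and cDC2 samples of a tissue correlated from -0.150 to 0.461 where their numbers matched. Where the numbers differed, they correlated from -0.492 to 0.258. These ranges overlap, so whether the numbers pair samples stays undecided, and the block is no test of pairing. With it, 5 members were called between the splenic subsets in place of 3. Leaving out each replicate in turn gave 2 to 5 calls there, 5 without splenic cDC2 replicate 2, and 3 to 5 for the maturation difference (5 with all samples, and 3 without immature thymic cDC2 replicate 3 or mature thymic cDC2 replicate 1 or 2). Lane 8 libraries alone, chosen after seeing the data, also gave 3 for the maturation difference. The cause was not tested.

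Sign changes were confined to differences near 0 that were not called. With lane 8 libraries alone, H2-T23 between tissues was -0.0111 in cDC1 and -0.0425 in cDC2, H2-M3 between the splenic subsets was -0.0769 and H2-T23 between the immature thymic subsets was 0.0928. H2-M3 between the splenic subsets was also -0.000276 by edgeR, -0.00404 with TMM scaling and -0.00145 with all libraries apart, H2-T23 between the immature thymic subsets was 0.00624 with lane in the fit, and the tissue difference of H2-T22 between subsets was 0.00825 with 1 sample per group and label number. With each replicate left out in turn, the ranges that crossed 0 were -0.0214 to 0.246 (H2-M3) and -0.15 to 0.35 (H2-T23) between tissues in cDC2; -0.10 to 0.15 (H2-M3), -0.0621 to 0.530 (H2-Q6), -0.282 to 0.00651 (H2-T22) and -0.10 to 0.40 (H2-T23) between the splenic subsets; -0.18 to 0.12 (H2-T23) between the immature and -0.186 to 0.0103 (H2-Q6) between the mature thymic subsets; -0.0226 to 0.192 (H2-M3) and -0.204 to 0.0418 (H2-T22) for the maturation difference; and -0.212 to 0.0760 (H2-T22) and -0.434 to 0.0659 (H2-T23) for the tissue difference. Depth limits Mr1 and, in mature cDC1, H2-T24, which rested on 1 to 89 reads there. It also limits H2-M2 in immature splenic cDC1, which rested on 6 to 37 reads per library.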

Other observations

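Class I-like genes outside the 10 members did not all rise on maturation. Of 38 listed, 33 were in the files and 15 were tested, of which 10 rose and 3 fell in thymic cDC1, where 30.4% of all tested genes rose and 33.7% fell, and 9 rose and 3 fell in thymic cDC2, where 27.7% rose and 25.5% fell (limma). The 3 that fell were the same in both subsets: H2-M5, a class I gene of the M region, Fcgrt, the heavy chain of the neonatal Fc receptor that carries antibody and albumin, and Hfe, a regulator of iron uptake. H2-M5 was at 320.6 ± 43.3 (SD, n = 4) in immature and 9.14 ± 6.76 (n = 3) in mature thymic cDC1, and at 233 ± 62.5 and 6.18 ± 7.09 (n = 3 each) in cDC2. Its log2 changes were -5.31 (adjusted p = 7.23e-07) and -5.70 (adjusted p = 1.22e-06). H2-M5 and H2-M2 lie in the same region of the complex and moved in opposite directions. Fcgrt fell by -2.41 (adjusted p = 8.85e-09) and -2.92 (adjusted p = 3.27e-09) and Hfe by -2.68 (adjusted p = 9.04e-10) and -1.80 (adjusted p = 1.39e-06).

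H2-M5 also differed between tissues in cDC2, being at 18.8 ± 7.20 (n = 3) in the spleen and 233 ± 62.5 (n = 3) in the immature thymic cells (3.59 on the log2 scale, adjusted p = 9.22e-04), while in cDC1 the difference was 0.14 (adjusted p = 0.941). The 2 tissue effects differed by 3.44 (adjusted p = 0.0349). Fcgrt was higher in the thymus in both subsets, by 0.80 (adjusted p = 0.0104) and 1.87 (adjusted p = 7.01e-06).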
